A study of Mus musculus with 6 samples.

Results

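The miR-467 and miR-669 miRNAs were followed in small RNA libraries of C2C12, an established mouse myoblast line. The members were all rows named mmu-miR-467 or mmu-miR-669 in the deposited tables, which gave 8 of the 49 listed miRNAs, 3 of miR-467 and 5 of miR-669. All 8 are 5p arms, the strand cut from the 5′ side of the hairpin. Since miR-467a-5p and miR-467b-5p had the same value in each of the 6 libraries, this pair was counted once, which left 7 distinct rows. The WT group was the unedited line (3 libraries). The MSTN-KO group (3 libraries) carried a CRISPR/Cas9 disruption of exon 3 of the myostatin gene, which encodes a secreted inhibitor of muscle growth. No treatment, time point or batch separates the groups in the labels. The study gives its knockout cells the single name C11 and does not say whether they are a clone. The strain label reads C11 for all 6 libraries, WT included, so the groups rest on the sample titles and the genotype label. Myostatin itself was not analysed here. No myostatin value thus checks the group names, and their assignment is in doubt. WT and MSTN-KO therefore stand for the libraries labelled so, and if the 2 names were exchanged every direction below would turn.

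MicroRNAs are short RNAs cut from hairpin precursors that repress messenger RNAs paired with bases near their 5′ end. The miR-467 and miR-669 hairpins belong to a large, tandemly repeated, rodent-specific cluster within an intron of Sfmbt2, which encodes a Polycomb-group protein. Sfmbt2 is imprinted and is expressed from the paternal allele in extraembryonic tissue, and the cluster is known for its part in growth of the placenta. In muscle biology the family is known through miR-669a, which has been shown to repress MyoD, the master regulator of myogenesis, in cardiac progenitors. miR-467b has been linked to lipoprotein lipase, an enzyme of triglyceride uptake, in macrophages.

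In the GENCODE M21 annotation (GRCm38), Sfmbt2 lies on chromosome 2 from 10370510 to 10595253 on the plus strand. It contains 119 miRNA hairpin genes on the same strand, none of which overlaps an exon of Sfmbt2. All 119 lie in intron 11 of the principal transcript, which has 23 exons. That intron measures 62472 bases and runs from 10461473 to 10523944. The hairpins include 14 of Mir467 and 29 of Mir669, beside 23 of Mir466 and 5 of Mir297. A further 4 Mir467 or Mir669 hairpins are annotated on other chromosomes, and no member carries the name of any of them.

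By name, 29 hairpins can give the members, spread over 42766 bases from 10467495 to 10510260. miR-669a-5p has 12 such hairpins and miR-467a-5p has 10, scattered between 10474433 and 10510260. miR-467b-5p has a single hairpin, Mir467b (10481248 to 10481320), which sits among the Mir467a copies. miR-669d-5p has 2 hairpins, at 10468343 to 10468463 and at 10471644 to 10471729. miR-669e-5p (10467495 to 10467613) and miR-669l-5p (10468971 to 10469068) lie close by, at the end of the cluster nearer to the Sfmbt2 start. miR-467c-5p comes from 10473931 to 10474027. miR-669c-5p comes from 10509296 to 10509404, near the far end of the members' stretch, 138786 bases from the annotated start of Sfmbt2. Reads of repeated copies cannot be assigned to one hairpin, and the reads counted for miR-467a-5p cannot be told apart from those of miR-467b-5p.

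**Figure D1:**
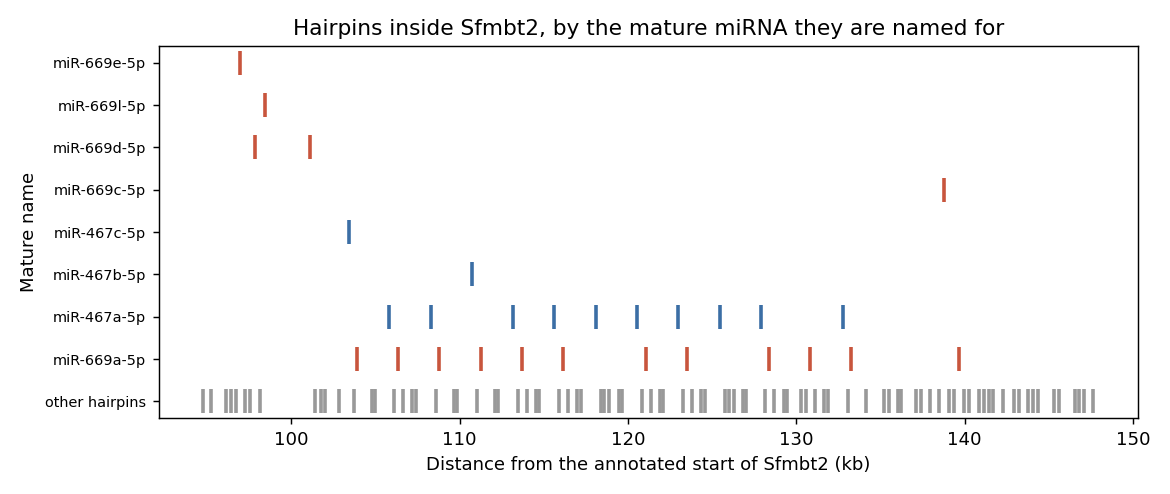
Each tick is 1 miRNA hairpin inside Sfmbt2, placed by its distance from the annotated gene start (x axis, kb) and by the mature miRNA it is named for (y axis), with miR-467 in blue, miR-669 in red and other hairpins in grey. The 12 miR-669a and 10 miR-467a copies are interspersed along the intron, while miR-669c-5p has 1 hairpin near the far end of the members' stretch.

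Hairpins within an intron are as a rule transcribed with their host gene. The RefSeq promoter window of Sfmbt2 in which 4 of its 7 GENCODE transcripts start is printed here because the members share this host and its strand. The window is chr2:10372186-10372485 of GRCm38.p6, plus strand, 5′ to 3′, and capitals mark the CG dinucleotides.
Sfmbt2 promoter: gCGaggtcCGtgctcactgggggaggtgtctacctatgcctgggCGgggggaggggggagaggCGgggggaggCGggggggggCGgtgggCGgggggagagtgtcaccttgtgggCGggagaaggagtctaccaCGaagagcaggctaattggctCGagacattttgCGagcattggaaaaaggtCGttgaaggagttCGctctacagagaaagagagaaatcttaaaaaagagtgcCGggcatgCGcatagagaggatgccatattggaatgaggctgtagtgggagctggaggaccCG
It holds 16 CG dinucleotides at a GC content of 60.0%. Of the 32851 RefSeq promoter windows of this length, 33.0% hold at least as many. The E-box CANNTG, which reads alike on both strands and is the motif bound by myogenic factors, has no match in this window, and 72.3% of all windows have at least one. Transcription from this promoter was not measured in these libraries.

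The article speaks of FPKM, but the values of a library were whole multiples of 1 step shared by all miRNAs, with no length term, and were read as RPM (reads per 1000000 library reads). On this reading the totals ran from 5502214 to 11823489 reads. At these totals 3 reads, taken as the smallest amount shown reliably, correspond to 0.254 to 0.545 RPM. The 49 listed miRNAs held 0.773% to 3.47% of a library. The skeletal muscle label was checked on 6 muscle miRNAs, all listed, whose summed level was 18977 to 32560 RPM in WT and 6319 to 11068 RPM in MSTN-KO libraries. As labelled, all 6 were lower in the MSTN-KO libraries at an adjusted p-value under 0.05 (limma), as were 71.4% of all 49 listed miRNAs. Their part in the results below was not tested. The 10 markers of other cell types chosen for the check are not among the 49 listed miRNAs and were not analysed here. The check thus covers muscle miRNAs only. In bulk RNA, fewer cells of a type and less RNA per cell cannot be told apart. Nothing states that the replicates came from separate cultures, so p-values measure only the spread between these libraries.

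All 7 distinct members were lower in the MSTN-KO group than in the WT group. Their group means were 57.8% to 76.9% lower. In each case the highest MSTN-KO library lay below the lowest WT library, as it did for 71.4% of all 49 listed miRNAs. The other 28.6% were higher without overlap. Separation of the groups is therefore not a result about the members. The same holds for the limma adjusted p-values given for each member below. They were adjusted over these 49 miRNAs alone, every one of which separated the groups. Adjustment within such a list cannot correct for how the list was picked. These p-values thus describe the spread between libraries and are no separate evidence of a change in the members.

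miR-669c-5p was the most abundant member in each of the 6 libraries. It had 37.9, 35.4 and 28.4 RPM in WT replicates 1, 2 and 3 and 14.2, 15.1 and 12.98 RPM in MSTN-KO replicates 1, 2 and 3. The WT mean of 33.9 ± 4.92 RPM was 2.41 times the MSTN-KO mean of 14.1 ± 1.06 RPM (SD, n = 3). The groups lay far apart, with WT replicate 3 the lowest of its group. These values rest on 825 WT reads and 335 MSTN-KO reads, the largest numbers among the members. Its log2 fold change of -1.20 had a standard error of 0.20 and an adjusted p-value of 0.000386 by limma.

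miR-669e-5p, from the hairpin nearest to the Sfmbt2 start among the members, had 3.85, 8.01 and 7.44 RPM in the WT libraries and 3.27, 2.20 and 2.41 RPM in the MSTN-KO libraries. The groups nearly met. WT replicate 1 held 25 reads, with a 95% Poisson interval of 2.49 to 5.69 RPM, and MSTN-KO replicate 1 held 18 reads, with an interval of 1.94 to 5.17 RPM. The log2 fold change of -0.995 had the largest standard error among the miR-669 members, 0.27, with an adjusted p-value of 0.00538 by limma. The WT mean was 6.44 ± 2.25 RPM and the MSTN-KO mean 2.63 ± 0.568 RPM (SD, n = 3).

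miR-669l-5p had 6.01, 5.39 and 5.33 RPM in the WT libraries and 1.82, 1.26 and 1.61 RPM in the MSTN-KO libraries. It was the most even member within the WT group, and its groups were well separated. The mean fell from 5.58 ± 0.379 to 1.56 ± 0.283 RPM (SD, n = 3), a change of -1.37 with a standard error of 0.19 on the log2 scale. Its limma adjusted p of 0.00018 was the smallest among the members.

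miR-669a-5p, the member linked to MyoD and the one with the most hairpin copies, had 3.08, 3.64 and 4.06 RPM in the WT libraries. In the MSTN-KO libraries it had 1.27, 1.78 and 1.49 RPM. Despite its 12 hairpins it was the second least abundant member in the mean of each group, 3.59 ± 0.490 and 1.52 ± 0.255 RPM (SD, n = 3). The change on the log2 scale was -0.87, with a standard error of 0.19 and an adjusted p-value of 0.00195 by limma.

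miR-669d-5p had 1.39, 1.02 and 1.35 RPM in the WT libraries, or 9, 7 and 16 reads, and 0.545, 0.210 and 0.115 RPM in the MSTN-KO libraries, or 3, 2 and 1 reads. No MSTN-KO library held more than the 3 reads taken as reliably shown. Over the pooled reads the WT level was 5.03 times the MSTN-KO level, with an exact 95% interval of 2.08 to 14.7 that covers counting error only. On the log2(RPM + 1) scale its change was the smallest of all members, -0.82 ± 0.21 (SE, limma adjusted p = 0.00365). The added 1 RPM exceeds the MSTN-KO values themselves and compresses the change of a miRNA at this level.

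miR-467c-5p was the more abundant of the miR-467 rows. It had 9.25, 10.3 and 11.6 RPM in the WT libraries and 1.999, 1.99 and 5.17 RPM in the MSTN-KO libraries. MSTN-KO replicate 3 stood well above the other two, with 45 reads against 11 and 19. The means were 10.4 ± 1.17 and 3.05 ± 1.83 RPM (SD, n = 3). With 1 RPM added its log2 fold change was the largest in size among the members, -1.58 (standard error 0.29, adjusted p-value 0.000786 by limma), and it was -1.92 without MSTN-KO replicate 3. With 0.1 RPM added, miR-669d-5p had the largest change, -1.94 against -1.88 for miR-467c-5p.

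The shared row of miR-467a-5p/miR-467b-5p had 4.47, 5.10 and 6.51 RPM in the WT libraries and 1.09, 2.51 and 1.84 RPM in the MSTN-KO libraries. The groups did not overlap, and MSTN-KO replicate 1 was the lowest, with 6 reads. The means were 5.36 ± 1.05 and 1.81 ± 0.712 RPM (SD, n = 3), and the difference on the log2 scale was -1.20, with an adjusted p-value of 0.00113 and a standard error of 0.24 by limma. The members with many hairpins, this pair and miR-669a-5p, thus had lower levels than miR-669c-5p with its single hairpin.

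**Figure D2:**
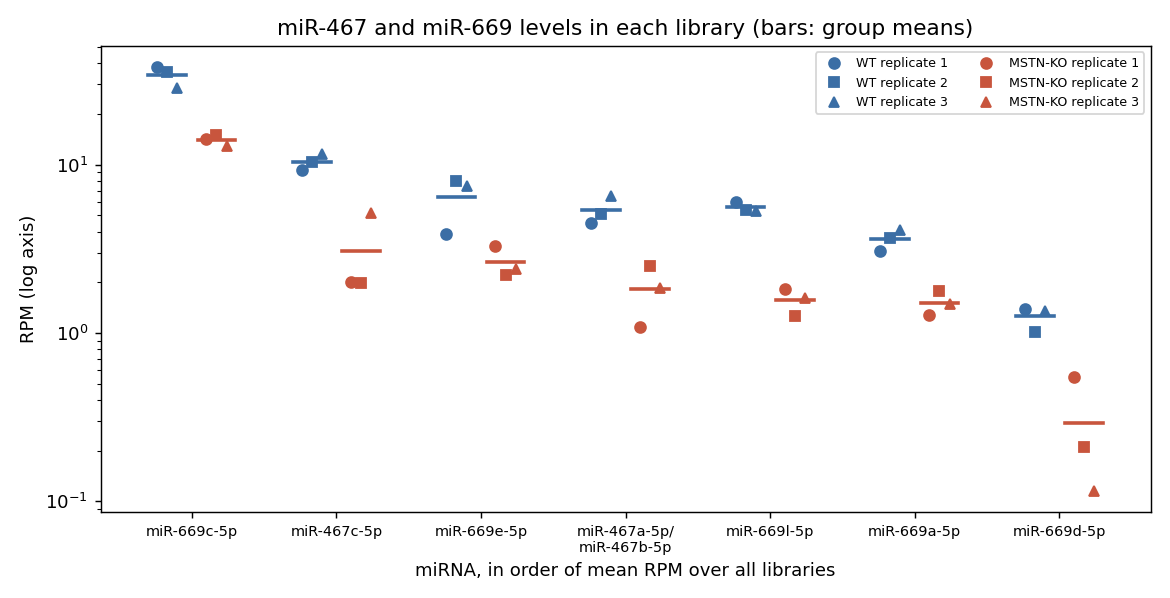
RPM of each distinct member (x axis, ordered by the mean over all libraries) on a log axis, with WT libraries in blue, MSTN-KO libraries in red, marker shapes for replicates 1 to 3 and horizontal bars for group means. In every member the 3 red points lie below the 3 blue ones, with the narrowest gap for miR-669e-5p (3.85 against 3.27 RPM).

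The order of the levels was firm only at its ends. RPM is not divided by length, and mature miRNAs are of nearly equal length. miR-669c-5p ranked first and miR-669d-5p ranked last among the members in all 6 libraries, and the latter had the lowest mean of the 49 listed miRNAs. miR-467c-5p ranked second in each WT library, without overlapping its neighbours. Between miR-669e-5p, miR-669l-5p and the miR-467a-5p/miR-467b-5p row the WT values overlapped. In the MSTN-KO group the values of the 5 middle members overlapped between neighbours, where miR-467c-5p exceeded miR-669e-5p in only 1 of 3 libraries. The rank of miR-669c-5p over all 49 miRNAs was 16, while the other members ranked from 28 to 49.

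To test the changes, both groups were fitted with limma over all 49 miRNAs. After Benjamini-Hochberg adjustment, 7 of 7 distinct members were downregulated at 0.05, against a background of 71.4% of the listed miRNAs. The remaining 28.6% passed as higher, so that every listed miRNA passed, the list was one of miRNAs that differ between these groups, and passing is no result about the members. When the thresholds in the article's methods were used instead (unadjusted p-value under 0.05 and more than 1 log2 unit either way), 4 of 7 were downregulated DEMs (differentially expressed miRNAs), against 57.1% of the list. These 4 were miR-669c-5p, miR-669l-5p, miR-467c-5p and the miR-467a-5p/miR-467b-5p row. miR-669a-5p, miR-669d-5p and miR-669e-5p missed the fold cut-off with 1 RPM added. The log2 ratios of their mean RPM were -1.25, -2.11 and -1.29. With 0.1 RPM added all 7 members passed as lower, against 69.4% of the list. The median log2 fold change was -1.20 over the members, -1.07 over all listed miRNAs and -1.30 over the 35 that were lower. Ranked by size of fall, the members ran from 12 (miR-467c-5p) to 35 (miR-669d-5p), the smallest fall of the lower miRNAs. The 95% interval of miR-467c-5p, -2.24 to -0.91, overlapped that of miR-669d-5p, -1.28 to -0.35.

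The size of the falls depended on the denominator. Rescaling the libraries on the listed miRNAs in 4 ways raised the median log2 fold change of the list by 0.62 to 1.23. Scaled to the listed total, none of the 7 members passed at an adjusted p-value under 0.05 (limma), against 20.4% of the list as lower. None passed at an unadjusted p-value under 0.05 either. By sign alone, 4 members were lower and 3 higher, against 21 lower and 28 higher of the 49 listed miRNAs. The members that turned were miR-669a-5p (0.12), miR-669c-5p (0.17) and miR-669e-5p (0.15). The total was also taken without miR-206-3p, by far the most abundant listed miRNA. All 7 members were then lower again, as were 35 of the 49 listed miRNAs. At the adjusted p-value 4 of the 7 passed (limma), against 40.8% of the list as lower. The listed miRNAs are a small, picked share of each library, so these scalings cannot settle which denominator is right.

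**Figure D3:**
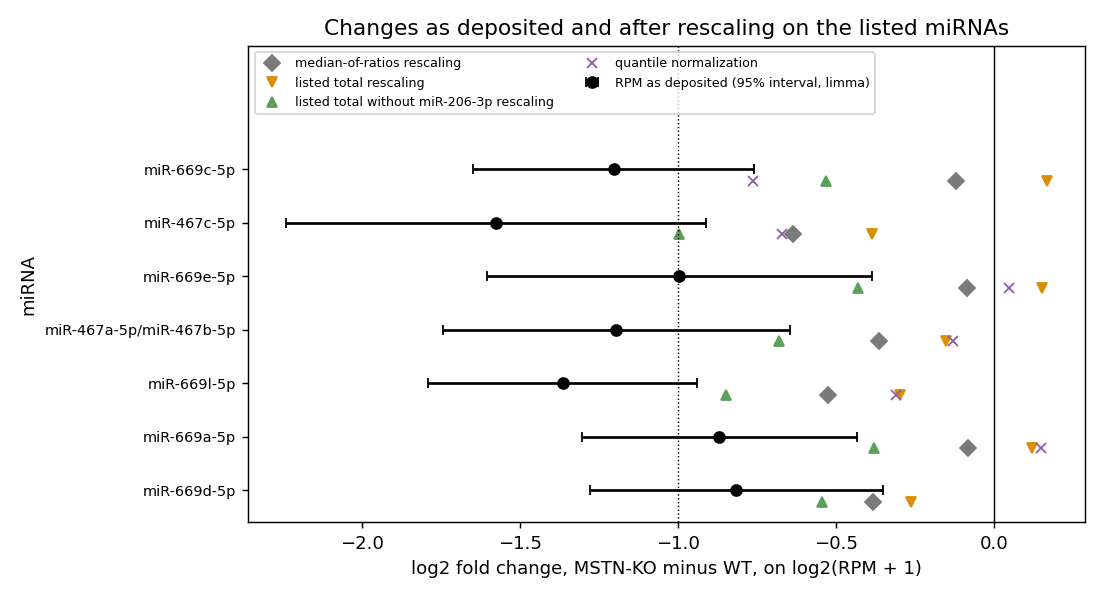
Log2 fold change of each member (x axis, MSTN-KO minus WT, on log2(RPM + 1)); black points with 95% limma intervals are the RPM as deposited, coloured symbols are 4 rescalings on the listed miRNAs, the solid line marks 0 and the dotted line -1. The black points lie between -1.58 and -0.82, while the rescaled ones move toward 0 and pass it for miR-669a-5p, miR-669c-5p and miR-669e-5p under the listed total and for miR-669a-5p and miR-669e-5p under quantile normalization, which leaves out miR-669d-5p.

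Summed over the distinct members, the level was 66.0, 68.9 and 64.7 RPM in the WT libraries and 24.2, 25.04 and 25.6 RPM in the MSTN-KO libraries. The sum varied little within a group, and the groups did not overlap, with means of 66.5 ± 2.15 and 24.9 ± 0.722 RPM (SD, n = 3). On the log2 scale the sums differed by -1.42, and 3 against 3 libraries cannot give less than the p of 0.1 found by exact permutation (two-sided). Without miR-669c-5p, a sum chosen after seeing the data, the difference was -1.59. As a share of the listed RPM, the members held 0.249% ± 0.0549 in WT and 0.253% ± 0.0572 in MSTN-KO libraries (SD, n = 3, p = 0.7 by exact permutation). Scaled to the listed total, the difference of the log2 sums was accordingly 0.021.

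**Figure D4:**
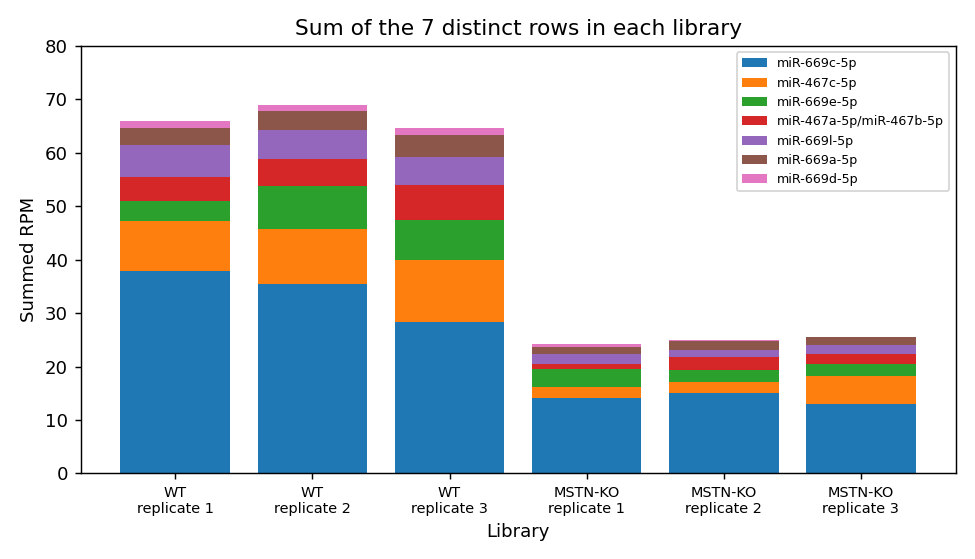
Stacked bars give the summed RPM of the 7 distinct rows (y axis) in each library (x axis), with 1 colour per member. The 3 WT bars reach 64.7 to 68.9 RPM and the 3 MSTN-KO bars 24.2 to 25.6 RPM, with miR-669c-5p as the largest part of each.

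The composition of the sum was then compared between groups, since it does not depend on the library total. miR-669c-5p made up 57.5%, 51.4% and 43.9% of the sum in the WT libraries and 58.6%, 60.3% and 50.7% in the MSTN-KO libraries. The ranges overlapped, and the difference of 5.60 percentage points was within the spread (exact two-sided permutation p = 0.3). It was 2.10 points without WT replicate 3 and 8.88 points without WT replicate 1. The 95% Wilson interval of that share was 40.4% to 47.5% in WT replicate 3 and 52.7% to 62.1% in WT replicate 1, so libraries of the same group differed as well.

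Both families were lower. The miR-467 rows summed to 13.7, 15.4 and 18.1 RPM in the WT libraries and to 3.09, 4.50 and 7.004 RPM in the MSTN-KO libraries. The miR-669 rows summed to 52.3, 53.5 and 46.6 RPM against 21.1, 20.5 and 18.6 RPM. The log2 ratio of miR-467 to miR-669 was -1.70 ± 0.29 in WT and -2.12 ± 0.68 in MSTN-KO libraries (SD, n = 3). That difference of -0.43 was within the spread (exact two-sided permutation p = 0.4), and it was -0.10 without MSTN-KO replicate 1.

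Each member was then set against the sum of the others, 7 comparisons in all. With 3 against 3 libraries no such comparison can pass correction, since the exact two-sided p cannot go under 0.1, and the lowest Benjamini-Hochberg adjusted p-value was 0.35. miR-669a-5p and miR-669d-5p stood out without overlap (exact permutation p = 0.1 each), higher relative to the others by 0.52 and 0.55 on the log2 scale with 1 RPM added. Without the added 1 RPM, a choice made after seeing the data, the difference was 0.17 for miR-669a-5p and -0.99 for miR-669d-5p, and both overlapped. miR-669l-5p was then the member without overlap, at -0.47 (exact permutation p = 0.1, adjusted p = 0.7).

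Replicates did not rank alike across members. Within the WT group, replicates 1 and 3 were each the highest in 3 of 7 members and replicate 2 in 1. Within the MSTN-KO group, replicates 1 and 2 were each the highest in 3 of 7 and replicate 3 in 1. The Pearson correlation of log2(RPM + 1) between a member and the mean of the other members over 6 libraries ran from 0.843 for miR-669e-5p to 0.969 for miR-669a-5p. Between 8 and 24 of the 41 other listed miRNAs correlated more closely with the same means. These correlations describe the gap between the groups, which all listed miRNAs share.

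The other miRNAs closest to the mean of the members by that correlation were miR-301b-5p (0.998), miR-181d-5p (0.996) and miR-148a-3p (0.990). Their log2 fold changes were -3.21, -1.03 and -3.91, of which the second lay within the range of the members and the others below it. Among miRNAs of other imprinted loci, 3 were listed, miR-335-3p and miR-335-5p from Mest and miR-675-3p from H19. As labelled, all 3 were lower in the MSTN-KO libraries at an adjusted p-value under 0.05 (limma), as were 71.4% of all 49 listed miRNAs. Their log2 fold changes were -3.23, -3.13 and -1.39. Of the other families of the Sfmbt2 intron, miR-466 and miR-297, no row is among the listed miRNAs, and none was analysed here.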

How the data were processed

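Small RNA was sequenced from 3 WT and 3 MSTN-KO libraries of C2C12 cells. The authors deposited 1 value for each of 49 miRNAs and each library, read here as RPM. The submitters' processing notes name Bowtie 0.12.2 and mm8. The counting tool and the miRNA catalogue are not given in the sources used here. Within a library all values were multiples of the smallest step (each within 0.01 of a whole number), which was taken as 1 read. This gave the totals and reads, which were too few per table for a count model. Groups and replicate numbers came from the sample titles.

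RPM were transformed to log2(RPM + 1) and fitted with limma 3.58.1 in R 4.3.3 over all miRNAs that reached 1 RPM in at least 1 library, which kept 49 of 49. Fold changes on this scale understate changes at low levels. The fit was tested on simulated data. Sums and ratios were compared by exact permutation over libraries (scipy 1.17.1). Intervals and the floor of 3 reads cover counting error only, since reads were not tied to single molecules. Coordinates are those of GENCODE M21 hairpins (GRCm38), matched by name, since the tables give none. The promoter sequence is from RefSeq (GRCm38.p6).

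The members and the lists were chosen with earlier results of these data known. The rule for named miRNAs took every member, the other imprinted and Sfmbt2 families, and the 3 other miRNAs correlating best with the members' mean.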

Additional observations from a re-analysis of the deposited data

How the results depend on the processing

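The counts of downregulated members were 4 by the study's cut-offs and 7 at an adjusted p-value under 0.05 (limma). They were the same with a mean-variance trend, with identical rows entered once and with the replicate number as a block. These settings left the members' log2 fold changes as they were, so only the p-values could move. Without a filter the fit could not differ, since the filter had kept 49 of 49 miRNAs. In these fits 56.2% to 57.1% and 70.8% to 71.4% of the list passed as lower. A pseudocount of 0.1 RPM gave 7 and 7, against 69.4% and 71.4% of the list. One of 10 RPM gave 0 and 6 (6 at an unadjusted p-value under 0.05), against 24.5% and 67.3%. A larger pseudocount compresses low values. A mean of at least 10 RPM kept 1 member, miR-669c-5p, which passed both as lower, against 59.1% and 63.6% of the 22 miRNAs kept. Under the 4 rescalings no member passed the cut-offs. Of the list, 18.8% to 24.5% passed as lower and 28.6% to 29.2% as higher. At an adjusted p-value under 0.05, 0 passed under median-of-ratios scaling (1 unadjusted) and 0 under the listed total (0 unadjusted). Under that total without miR-206-3p 4 passed (5 unadjusted), and under quantile normalization 1 of 6 (1 unadjusted). Of the list, 20.4% (listed total) to 40.8% (without miR-206-3p) passed as lower at the adjusted p-value. The shares under median-of-ratios scaling (24.5%) and quantile normalization lay between these. As higher, 28.6% to 29.2% of the list passed. For the unadjusted counts no share of the list is given, so they are no result about the members. Beside the turns under the listed total (miR-669a-5p 0.12, miR-669c-5p 0.17, miR-669e-5p 0.15, the log2 sum 0.021), quantile normalization turned miR-669a-5p (0.15) and miR-669e-5p (0.046). The cause was not tested. The log2 sum was otherwise lower in the MSTN-KO group, by -1.43 to -0.28 with the rows and scalings tried and -1.42 as a mean of same-numbered differences (replicate block, exact sign flips, p = 0.25, the smallest for 3 pairs).

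Leaving out each library in turn gave 4 to 5 members by the cut-offs, against 44.9% to 59.2% of the list passing as lower. At the adjusted p-value it gave 7 members, against 69.4% to 71.4% of the list. The log2 sum then differed by -1.44 to -1.39, the share of miR-669c-5p by 2.10 to 8.88 percentage points and the log2 ratio of miR-467 to miR-669 by -0.78 to -0.10. Of 112 values of single members across the alternatives, 89 kept direction and side of the threshold, 18 were no longer past it and 5 turned. The 89 include the fit without a filter, which could not differ. Deviations from the group means correlated by 0.0047 to 0.22 in same-numbered pairs, so the numbers were not taken to pair the libraries. The ratio of 3p to 5p arms was not run, because all members are 5p arms.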

Other observations

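The sum of the members varied less between replicates than its parts did. Its coefficient of variation was 3.23% in WT and 2.90% in MSTN-KO libraries (n = 3 each), where counting error alone corresponds to 4.40% and 7.30%. miR-669e-5p varied by 35.0% in the WT group against a counting error of 13.9%, and miR-467c-5p by 60.0% in the MSTN-KO group against 20.4%. Each was the member furthest above counting error in its group. By contrast, miR-669a-5p and miR-669l-5p varied by less than counting error in both groups, miR-669l-5p by 6.79% against 15.2% in WT libraries. In WT replicate 3, which had the lowest miR-669c-5p level of its group, the other members summed to 36.3 RPM, the highest value of the group, against 28.1 RPM in WT replicate 1, which had the highest miR-669c-5p level. This pattern was noticed in the data and was not tested.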
